A study of Homo sapiens with 18 samples.

Results

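Transcripts annotated as targets of nonsense-mediated decay were followed across LNCaP cells, a human prostate cancer line that responds to androgen. A transcript was included if the deposited tables gave it the type nonsense_mediated_decay and its mean estimated count over all 17 libraries was at least 5. By this rule 2783 of the 14200 transcripts of that type were included, out of 164776 transcripts of any type, and 3354 of the type were at 0 in every library. The included transcripts belonged to 2166 genes, 1688 with 1 such transcript and 478 with more. ASAH1, SHMT2, SMIM7 and TCTN1 held the most, 6 each. Because mean counts chose the transcripts, their mean levels are described and not tested. Just inside the cutoff were transcripts of APEH (5.002), NCKIPSD (5.002) and SERINC5 (5.003), and just outside it those of FBXO10 (4.996), ZMYND12 (4.997) and TMEM126B (4.99994).

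The cells had received a control siRNA (siControl) or an siRNA against NFYA (siNFYA) or KLF5 (siKLF5), both genes of transcription factors. All were deprived of steroid for 48 h in medium with 5% charcoal-stripped serum and then given vehicle (ethanol) or the synthetic androgen R1881 at 10 nM for 24 h. Each of the 6 groups has 3 samples in the labels. Replicate 1 of siKLF5 vehicle was not analysed here, which leaves n = 2 in that group and n = 3 in the others. LNCaP is a single line. Since the labels do not state whether replicates came from separate cultures, p-values measure only the spread between these libraries.

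Nonsense-mediated decay is a surveillance pathway that removes messenger RNAs whose stop codon lies well upstream of a splice junction. During translation an exon junction complex that remains bound after the stop codon marks the transcript, the helicase UPF1 is activated and the RNA is cut or degraded. Cells also use the pathway to set the level of normal genes: many splicing factors promote inclusion of a "poison exon", an exon that carries a stop codon, in their own RNA. The annotation type is a prediction from the position of the stop codon, so a transcript of this type is not thereby known to be degraded.

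The sequences of 10 of the transcripts show how the early stop arises. They were chosen because results below turn on them or, for TRA2B, because its exon is a textbook poison exon. Each runs 5′ to 3′ on the transcript strand (GENCODE v29, GRCh38) and ends in the stop codon, in capitals. The first 6 begin where the transcript leaves the exons of its most abundant coding transcript. In PDIA3, SRSF6, TRA2B and ST6GALNAC1 the printed bases lie in an exon that the coding transcript lacks, in NUMA1 in a kept intron, and in LUC7L in bases outside the exons of the coding transcript.
PDIA3 (ENST00000434494, chr15:43751584-43751632, plus strand): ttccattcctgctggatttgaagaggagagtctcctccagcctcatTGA
SRSF6 (ENST00000483871, chr20:43459153-43459304, plus strand): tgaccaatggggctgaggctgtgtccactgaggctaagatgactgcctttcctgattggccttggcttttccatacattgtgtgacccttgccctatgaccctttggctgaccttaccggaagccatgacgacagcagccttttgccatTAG
TRA2B (ENST00000456380, chr3:185931772-185931852, minus strand): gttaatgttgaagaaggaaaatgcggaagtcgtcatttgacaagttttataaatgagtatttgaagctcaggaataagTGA
ST6GALNAC1 (ENST00000592042, chr17:76637676-76637736, minus strand): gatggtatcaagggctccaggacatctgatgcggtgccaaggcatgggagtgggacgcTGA
NUMA1 (ENST00000545721, chr11:72008612-72008687, minus strand): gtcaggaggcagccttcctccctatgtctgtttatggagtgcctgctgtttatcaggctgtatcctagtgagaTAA
LUC7L (ENST00000426094, chr16:229211-229278, minus strand): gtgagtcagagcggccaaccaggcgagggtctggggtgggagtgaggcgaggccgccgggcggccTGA
KLK2 (ENST00000599121, chr19:50876472-50876575, plus strand, read in another frame after a skipped exon): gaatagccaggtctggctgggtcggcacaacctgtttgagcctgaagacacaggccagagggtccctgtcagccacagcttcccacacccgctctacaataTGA
The other 3 reach a stop within a few bases of the junction into an exon that the coding transcript lacks, so their last 60 coding bases are shown, nearly all of which are shared with the coding transcript. The stop lies 11 bases past that junction in DNAJC5, 7 in TRAF4 and 9 in SREBF1, counting the stop codon.
DNAJC5 (ENST00000470551, stop at chr20:63931117-63931119, plus strand): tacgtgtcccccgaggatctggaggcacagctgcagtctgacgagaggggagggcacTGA
TRAF4 (ENST00000478021, stop at chr17:28744705-28744707, plus strand): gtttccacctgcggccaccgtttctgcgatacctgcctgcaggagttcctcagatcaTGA
SREBF1 (ENST00000395751, stop at chr17:17817583-17817585, minus strand): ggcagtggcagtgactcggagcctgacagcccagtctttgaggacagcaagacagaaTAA

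The annotated structures bore out the label. Of 2761 transcripts with an annotated stop codon, 2751 (99.6%) had their last junction at least 50 nt past the stop, which is the annotation's own criterion and so no independent check. The median distance was 479 nt (quartiles 213 and 1033 nt), with a median of 4 junctions after the stop and a single one in 550 transcripts. Their coding parts were short, with a median of 309 nt in transcripts of 1845 nt. Against the most abundant coding transcript of the gene, available for 2707, the stop lay inside an extra exon in 676 (24.97%). These extra exons had a median length of 119.5 nt, and the lengths of 450 were not divisible by 3. At least 1 exon was skipped in 1067 and an intron was kept in 119, while 184 used the same stop as the coding transcript. The chromosomes with the largest numbers of them were 17 (230), 1 (198) and 11 (192).

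The libraries held 4416653 to 6872421 estimated counts each. Counts of replicates differed by more than counting error in every pair, with a chi-square per degree of freedom of 7.39 to 12.6 over transcripts. One library stood apart: siNFYA vehicle replicate 3 held 26996 CPM (a count scaled to the size of its library, normalised here for library make-up) of the ribosomal-RNA-like AC010970.1, against 942 to 4009 in the other 16. The siNFYA vehicle results that rest on it are given without it below. The CPM of genes that follow, of the siRNA targets and the cell markers, were scaled to library totals alone. The targeted genes were lowered in part. NFYA was at 74.3 to 82.9 CPM in the control libraries and at 48.2 to 54.8 with siNFYA. KLF5 was at 3.54 to 5.34 CPM in control vehicle against 1.02 and 3.30 with siKLF5, and at 23.4 to 29.4 in control R1881 against 10.6 to 14.2. All 10 luminal prostate markers were present. The basal marker KRT5 was at 0, KRT14 and TP63 were at most 0.436 and 0.150 CPM, and the stromal COL1A2 and DCN at most 0.562 and 0.509, although COL1A1 was at 6.16 to 17.3 and ACTA2 at 2.00 to 7.37. Of the blood and endothelial markers PTPRC and PECAM1 were at most 0.585 and 1.12 CPM, while CD68 was at 4.03 to 11.5 and VWF at 1.49 to 9.98.

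Most of the transcripts were scarce. Their median mean count was 15.6 and their median level 3.10 TPM (the deposited unit that corrects for transcript length and depth). Of the 2783, 2307 reached 1 TPM and 516 reached 10 TPM. A transcript held a median of 8.13% of the TPM of its gene, 1231 held at least 10% and 149 at least 50%. A count above 0 in every library was found for 1103 (39.6%), against 64.0% of the 27737 protein-coding transcripts past the same cutoff, which had a higher median count of 43.6. The most abundant per length were 2 transcripts of other functions. B2M ENST00000561424 of the gene for the light chain of class I antigen-presenting molecules averaged 641 TPM, or 51.4% of the gene. PDIA3 ENST00000434494, of the gene for a disulphide isomerase of the endoplasmic reticulum, averaged 638 TPM, 68.0% of the gene, and had the highest mean count, 4653. Next came HNRNPA1 (521 TPM), 2 transcripts of the ribosomal scaffold gene RACK1 (464 and 404), SERF2 (376), the ribosomal protein gene RPS3 (375), COX6C (313), creatine kinase B, CKB (302), POLR2L (241), a second B2M transcript, ENST00000349264 (236), and ITM2B (232).

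How well a transcript could be told from others of its gene varied. A median of 29 of the 1815 31-base words in a transcript occurred in no other transcript of the tables, and 687 of the transcripts (24.7%) had no such unique word. Reads for these can only be divided by the quantification model. The spread between replicates followed the count. The median coefficient of variation (CV, the SD over the mean) of CPM within groups was 81.4% for the 1621 transcripts with mean counts from 5 to 20, 40.2% for the 864 from 20 to 100 and 14.3% for the 298 above 100. Protein-coding transcripts in the same classes had 76.8, 30.97 and 9.26%. The CV was 71.4% for transcripts with no unique word and 55.0% for those with at least 20, and 5.96% for the summed counts of the genes. A level of a single transcript is therefore less certain than that of its gene.

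**Figure D1:**
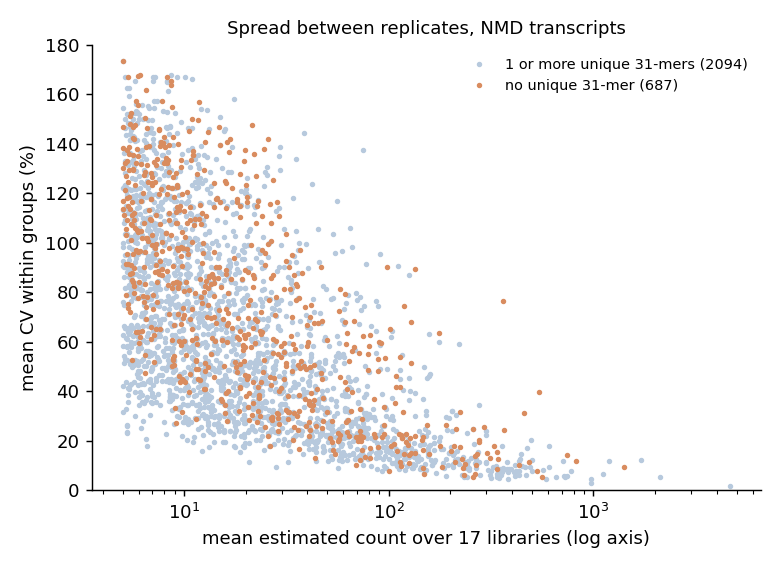
Spread between replicates of each nonsense-mediated decay transcript: the x axis is the mean count over 17 libraries (log scale) and the y axis the mean CV of CPM within groups in percent, with colours for transcripts with and without a unique 31-base word. The cloud falls from a median CV of 81.4% at counts of 5 to 20 to 14.3% above 100; the 2 transcripts without a sequence are not plotted.

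As a class the transcripts took a nearly constant share of the counts, while their share of TPM was higher with R1881. They held 2.31, 2.36 and 2.32% of the counts in control vehicle and 2.36, 2.38 and 2.38% in control R1881. The libraries of these groups barely separate: the highest vehicle value was 2.36389% and the lowest R1881 value 2.36486%. The means were 2.33 ± 0.0275% and 2.37 ± 0.00766% (SD, n = 3), a difference of 0.0410 percentage points (exact two-sided permutation p = 0.1, the smallest that 3 against 3 libraries allow). Without a single transcript, PDIA3 ENST00000434494, left out after its values were seen, the difference was -0.00644 (exact permutation p = 0.9). Over all transcripts of the type, with no cutoff on counts, the groups overlapped. Control vehicle libraries then held 2.47 to 2.52% and control R1881 libraries 2.49 to 2.51%, a difference of 0.0176. On the TPM scale the class held 2.56 ± 0.0370% in control vehicle and 2.86 ± 0.00844% in control R1881, again without overlap (exact permutation p = 0.1). In the other arms it went from 2.49 to 2.80% with siNFYA and from 2.57 to 2.80% with siKLF5.

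With siNFYA in R1881 the class held 2.45, 2.46 and 2.41% of the counts, above the 3 control R1881 libraries (means 2.44 ± 0.0224 and 2.37 ± 0.00766%, difference 0.0656, exact permutation p = 0.1, n = 3 each). On the TPM scale the same difference was -0.0545, so its direction depends on the scale. In vehicle the siNFYA libraries held 2.38, 2.35 and 2.25% and overlapped the controls (difference -0.00485, exact permutation p = 1, n = 3 each). The low value is replicate 3, and without it the difference was 0.0325. In TPM the siNFYA vehicle libraries were all below the controls (difference -0.0677, exact permutation p = 0.1). Over all transcripts of the type they overlapped the controls in TPM (2.78 to 2.88% against 2.83 to 2.89%). With siKLF5 the class held 2.36 and 2.34% in vehicle and 2.40, 2.40 and 2.39% in R1881. The differences from control were 0.0189 (exact permutation p = 0.4, n = 2 against 3) and 0.0232 (p = 0.1, n = 3 each), the latter -0.0521 in TPM. For retained-intron transcripts the share was taken over all of that type, with no cutoff on counts. Its group means were 2.18 and 1.96% in control vehicle and R1881, 2.87 (2.97 without replicate 3) and 2.62% with siNFYA, and 2.59 and 2.34% with siKLF5. Within their own genes the transcripts held 9.88 and 9.81% of the counts in control vehicle and R1881, 9.97 and 10.1% with siNFYA and 10.0 and 9.98% with siKLF5.

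**Figure D2:**
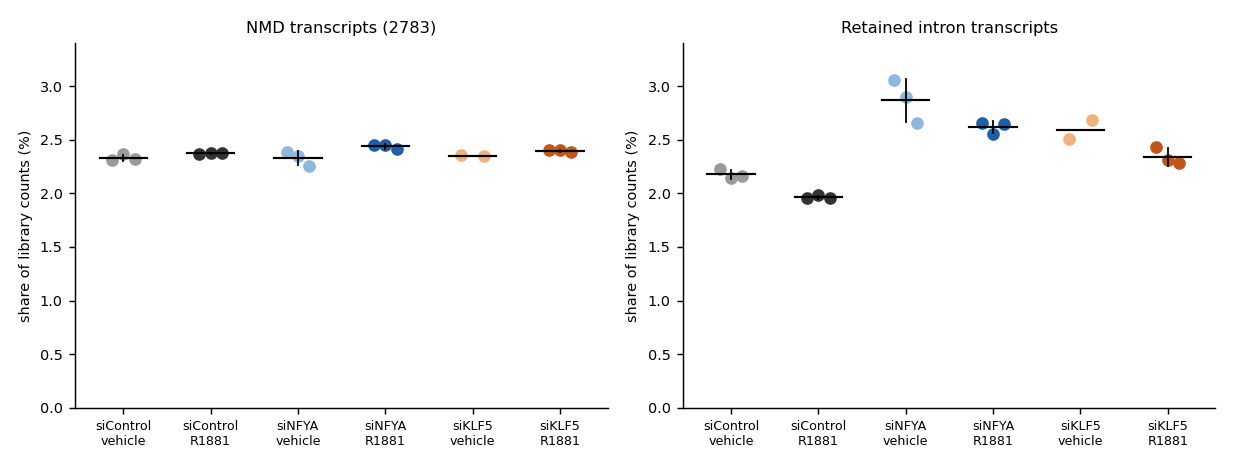
Share of all transcript counts, in percent, held by the nonsense-mediated decay transcripts (left) and by retained-intron transcripts (right) in each of the 17 libraries (points), with group means as horizontal lines and the SD as a vertical bar where n = 3. The cutoff on mean counts applies to the left panel only. On the left all libraries lie between 2.25 and 2.46% and the siNFYA R1881 libraries are the highest; on the right the group means run from 1.96 to 2.87%.

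R1881 against vehicle in control cells asks which of these transcripts respond to androgen. After the filter on low counts 2487 of the 2783 could be tested in the control and siNFYA table. Of these, 192 passed (edgeR quasi-likelihood test, Benjamini-Hochberg adjusted p under 0.05 over all 35475 transcripts), 144 higher and 48 lower. That is 7.72% of those tested, below the 16.3% of all transcripts tested that passed (9.24% higher and 7.06% lower). The split depends on the scaling: with library totals in place of the normalisation, which moves the median of all genes from -0.01 to -0.25 on the log2 scale, 108 were higher and 99 lower. The transcripts were also scarcer, with a median mean count of 18.3 against 32.3 over all transcripts tested, and the 192 had a median of 116. The 192 came from 176 genes, 118 changed at least 2-fold (86 higher, 32 lower), and 35 had no unique 31-base word. A transcript near the cutoff that is absent from one group could enter only through the other group, so these counts describe and do not support a response of the class.

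Nearly all of the 192 moved with their genes. The summed counts of the gene, which include the transcript itself, changed in the same direction for 188. They themselves passed for 177, in a comparison where 62.9% of all genes passed. Part of this agreement is therefore built in. The median log2 change was 0.91 for the transcripts and 0.72 for their genes, and 146 changed by more than their gene. The 192 had passed on their own change, which by itself favours a larger change than that of the gene. Only TRAF4, LUC7L, FNTA and NSD2 had a transcript that went against its gene; with library totals the first 3 genes did not pass (log2 -0.05, -0.03 and -0.04) and NSD2 still fell. PDIA3 shows the common pattern. ENST00000434494 was at 572, 569 and 564 CPM in vehicle and 1153, 1158 and 1153 in R1881, so the groups are far apart and the replicates close together. It rose by a log2 of 1.01 (SE 0.0293, adjusted p = 2.57e-09) while the gene rose by 1.07. Its coding transcript ENST00000300289 went from 129, 127 and 129 to 232, 239 and 238 CPM, and the decay-type transcript kept 78.1 ± 0.528 and 78.6 ± 0.553% of the counts of the gene (n = 3 each).

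**Figure D3:**
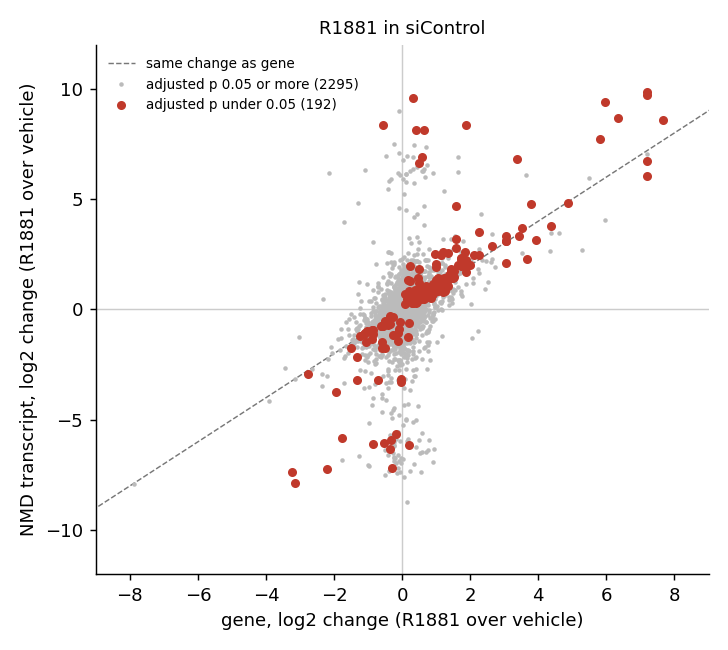
Log2 change with R1881 in control cells of each tested nonsense-mediated decay transcript (y axis) against that of its gene (x axis); red points passed the level test, grey ones did not, and the dashed line marks the same change as the gene. Of the 192 that passed, 188 lie on the same side of 0 as their gene, whose summed counts include the transcript.

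The other abundant transcripts differed among themselves. B2M ENST00000561424 was at 91.2, 91.2 and 93.0 CPM in vehicle and 249, 251 and 262 in R1881 (log2 1.46, SE 0.0761, adjusted p = 2.59e-07), and B2M ENST00000349264 at 35.7, 34.9 and 49.2 and then 118, 147 and 139 (log2 1.75, SE 0.130, adjusted p = 4.37e-06). Neither pair of groups overlaps, and the gene rose by 1.52. CKB ENST00000553652 rose from 149, 138 and 133 to 293, 297 and 252 CPM (log2 0.99, SE 0.106, adjusted p = 7.06e-05). HNRNPA1 ENST00000547566, of the gene for an abundant RNA-binding protein that regulates splicing, fell from 465, 458 and 473 to 344, 332 and 293 CPM (log2 -0.54, SE 0.0782, adjusted p = 0.000697), as its gene did (-0.51). SERF2 ENST00000409617 passed at 0.29 (adjusted p = 0.0114), a call that was lost when library totals set the scale. The transcripts of RACK1, RPS3, COX6C, POLR2L and ITM2B did not pass, with adjusted p from 0.108 to 0.81.

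Transcripts of androgen-induced genes rose together. A list of 52 such genes held 25 of the transcripts, from 14 genes, of which 24 could be tested, 14 passed upward and none downward (median log2 3.33 over the 24, beside -0.03 over all transcripts tested). Library totals gave the same counts. All 51 genes of the list that were tested rose, and the list was chosen from genes known to respond, so its direction is not a finding about decay. The largest change was in KLK2, which encodes a prostate kallikrein related to prostate-specific antigen. KLK2 ENST00000599121 was at 0, 0 and 0.482 CPM in vehicle and 139, 142 and 152 in R1881, a ratio of 956 (95% counting interval 327 to 4641). KLK2 ENST00000597439 was at 0 in the 3 vehicle libraries and at 25.03, 11.0 and 25.2 CPM in R1881, at least 135-fold higher (3 counts over the group taken as the floor). KLK3 ENST00000422986, of the gene for prostate-specific antigen itself, was at 0 in vehicle and at 15.2, 21.3 and 9.39 CPM in R1881, at least 102-fold higher. Both KLK2 transcripts lack unique words and KLK2 and KLK3 are close copies, so the division of reads among them is uncertain.

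Further transcripts of the list, chosen after their values were seen, were above 0 in at least 2 of the 3 vehicle libraries. MBOAT2 ENST00000471753, of a membrane-bound acyltransferase gene, rose from 14.0, 14.3 and 19.0 to 138, 130 and 144 CPM (log2 3.11, SE 0.123, adjusted p = 2.86e-08). SORD ENST00000559230, of the sorbitol dehydrogenase gene, rose from 18.9, 10.7 and 21.7 to 147, 191 and 179 CPM (log2 3.33, SE 0.209, adjusted p = 1.13e-06). ACSL3 ENST00000407441, of a long-chain acyl-CoA synthetase gene, rose from 4.20, 4.30 and 9.09 to 70.0, 57.1 and 50.8 CPM (log2 3.33, SE 0.469, adjusted p = 0.000539). In each of the 3 the lowest R1881 library was several times the highest vehicle library, and the genes rose by 3.05, 3.06 and 3.43. KLK4 ENST00000593885 rose by 3.69 (adjusted p = 1.57e-05) and NCAPD3 ENST00000525964 by 3.76 (adjusted p = 0.00549), beside genes at 3.53 and 4.37. Outside the list, ST6GALNAC1 ENST00000592042, of a sialyltransferase gene, went from 0 in every vehicle library to 13.6, 5.49 and 8.10 CPM (at least 60.2-fold). HPGD ENST00000510835, of the prostaglandin-degrading dehydrogenase gene, went from 1 count over the group to 23.2, 25.6 and 35.8 CPM (ratio 560, 99.9 to 22151).

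Falls were fewer, and the largest of them rested on low counts. Of the 48 falls, 33 were of transcripts with a mean count of at least 20. BCHE ENST00000497011, of the butyrylcholinesterase gene, was at 6.76, 3.71 and 5.22 CPM in vehicle and at 0 in R1881, at least 27.8-fold lower. By the same measure NRG3 ENST00000602794, of a neuregulin gene (1.88, 4.15 and 4.79 CPM in vehicle), was at least 19.3-fold lower and STXBP5L ENST00000461772 (2.77, 3.01 and 4.24 CPM) at least 17.7-fold lower. The genes of these 3 fell by 3.15, 3.24 and 2.20 on the log2 scale. CDK11A ENST00000460465 was at 0.585, 3.86 and 5.21 CPM in vehicle and 0 in R1881, with a gene change of -0.30 that did not pass (adjusted p = 0.116) and no unique word. Calls for TARSL2, NCAPG and TMEM184C, also among the 8 largest falls, were lost when single libraries were left out, in 5, 5 and 4 of 6 such fits. Those for PRKAR1A and SCAP, among the 8 largest rises, were lost in 5 of 6 each.

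Splicing factor genes held the largest number of these transcripts among the lists followed, 64 from 42 genes, of which 62 could be tested. Their median log2 change with R1881 was -0.26, with none higher and 3 lower, or none higher and 5 lower with library totals, in the comparison where 16.3% of all transcripts tested passed and 7.06% were lower. HNRNPA1 was given above. LUC7L ENST00000426094, whose gene encodes a U1-associated factor, was at 2.50, 0.554 and 1.70 CPM in vehicle and 0 in R1881 (at least 8.29-fold lower) while its gene rose by 0.21, or was at -0.03 with library totals. It held 3.76 to 16.3 counts in the vehicle libraries, and with siKLF5 and siNFYA it was above 0 in 5 of 6 R1881 libraries. The poison exon transcript of TRA2B, ENST00000456380, which has no unique word, was at 30.5% of the TPM of its gene over all libraries and at a log2 change of 0.10 (adjusted p = 0.789), and that of SRSF6 at -0.21 (adjusted p = 0.0639). Of 26 tested transcripts of cytosolic ribosomal protein genes none passed (median -0.07), nor did any of 16 of translation and RNA decay factors (median -0.24). Of 5 tested from cell cycle genes none rose and 1 passed downward, although 52 of 53 genes of that list fell.

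A test of each transcript against the others of its gene asked whether any changed its share. With R1881 in control cells 8 of 2415 tested passed, all upward (16 higher and 9 lower with limma diffSplice), which is 0.331%, against 0.38% of all transcripts tested (0.188% upward). The clearest in structure was DNAJC5, which encodes a co-chaperone of synaptic and secretory vesicles and has only 2 transcripts in the tables. The decay-type transcript ENST00000470551 carries an extra 74-nt exon. It was at 47.8, 61.9 and 54.1 CPM in control vehicle and 107, 90.8 and 95.03 in R1881, while the coding ENST00000360864 was at 137, 125 and 135 and then 107, 114 and 109. The groups do not overlap for either transcript, and they moved in opposite directions. The level of the decay-type transcript rose by 0.83 (SE 0.127, adjusted p = 0.000956), and its share of the gene from 29.2 to 47.0% (libraries 25.9, 33.0 and 28.6%, then 50.04, 44.4 and 46.5%). The share passed narrowly (log2 0.69, adjusted p = 0.04997) and was lost in every fit that left out a library (adjusted p 0.0942 to 0.390) and without the filter on low counts (0.708). The level call held in every such fit (adjusted p 0.00141 to 0.00553). With siNFYA its level rose by 0.43 with R1881 (adjusted p = 0.0421), from shares of 38.1 to 39.9% in vehicle to 44.0 to 52.5%. With siKLF5 it rose by 0.71 (adjusted p = 0.0195). The coding transcript overlapped between treatments with siNFYA, at 97.9, 111 and 112 CPM in vehicle and 99.7, 103 and 102 in R1881. With siKLF5 the coding transcript was at 135 and 126 CPM in vehicle and lower in R1881, at 108, 95.8 and 91.6.

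**Figure D4:**
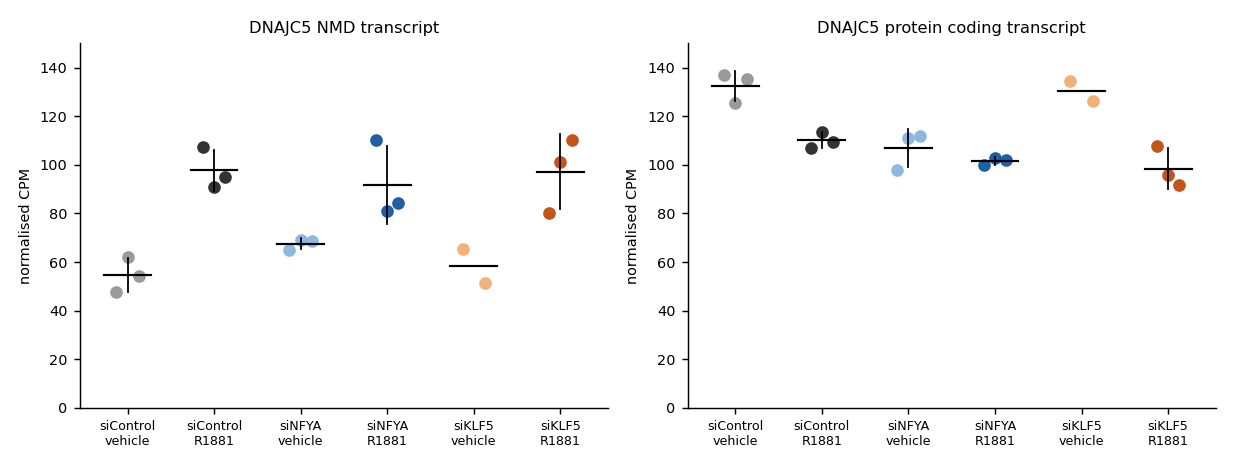
Levels in normalised CPM of the decay-type (left) and the coding transcript (right) of DNAJC5 in each library (points), by group, with means as horizontal lines and the SD as a vertical bar where n = 3. In control cells the decay-type transcript goes from 47.8 to 61.9 CPM in vehicle to 90.8 to 107 in R1881, and the coding transcript is lower in R1881 than in vehicle.

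The other 7 share calls were of transcripts at or near 0 in at least 2 of the 3 vehicle libraries. NSD2 ENST00000312087, of a histone methyltransferase gene, was at or near 0 in vehicle and at 12.1, 5.14 and 4.84 CPM in R1881 (at least 49.0-fold higher) while its gene fell by 0.56. The same transcript was at 7.09, 9.19 and 10.3 CPM in siNFYA vehicle and at 8.08 and 0 in siKLF5 vehicle, so it was not absent from vehicle cells in general. PRKAR1A ENST00000392710 (9.92, 38.6 and 3.50 CPM in R1881), CALD1 ENST00000443197 (45.0, 1.44 and 27.5) and DDX5 ENST00000581693 (5.87 to 152 counts) varied widely between R1881 libraries. They have 27, 141 and 29 unique words. Those of TXNDC15, KLK2 (ENST00000599121) and FAM91A1 complete the 8. Leaving out 1 library kept the calls for NSD2, PRKAR1A and CALD1 in all 6 fits. It lost those for TXNDC15 in 6 (adjusted p 0.0706 to 0.197), KLK2 in 5 (up to 0.473), FAM91A1 in 5 (up to 0.1498) and DDX5 in 4 (up to 0.283).

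FNTA, which encodes a subunit of farnesyltransferase, held a transcript that fell with R1881 in all 3 siRNA arms, and was chosen after its values were seen. FNTA ENST00000526755 was at 22.3, 26.3 and 23.6 CPM in control vehicle and 15.8, 14.9 and 17.4 in R1881 (log2 -0.59, SE 0.115, adjusted p = 0.00448), with no overlap, while the gene rose by 0.19 (adjusted p = 0.00503), or was at -0.04 with library totals (adjusted p = 0.527). The share test did not pass (log2 -0.74, adjusted p = 1). Its changes with R1881 were -0.64 with siNFYA (adjusted p = 0.00262) and -0.81 with siKLF5 (adjusted p = 0.0432). The gene rose by 0.23 with siNFYA (adjusted p = 0.00172) and 0.20 with siKLF5 (adjusted p = 0.00758). With library totals the gene values were 0.01 and -0.04. It held 146 to 179 counts in control vehicle and 80.5 to 90.4 in R1881, with 28 unique words.

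In the knockdown arms R1881 gave similar counts of calls. With siNFYA 213 of the 2487 passed (8.56%, 151 higher and 62 lower), where 16.9% of all transcripts tested passed (9.56% higher, 7.37% lower). With siKLF5 147 of 2624 tested passed (112 higher, 35 lower), where 12.4% of all did (7.08% higher, 5.35% lower). With library totals the splits were 117 higher and 99 lower with siNFYA and 89 and 54 with siKLF5. These arms share no library with the control arm. Of the calls in control cells 131 also passed in the same direction with siNFYA (68.2% of the control list, 61.5% of the siNFYA list) and 102 with siKLF5 (53.1 and 69.4%). In all 3 arms 92 passed, 76 higher and 16 lower, and no transcript passed in opposite directions in 2 arms. The same overlaps over all transcripts tested were not counted, so these numbers do not show whether the class differs from them. PDIA3 rose by 1.17 with siNFYA and 0.89 with siKLF5. Of the androgen-induced list 15 transcripts rose with siNFYA and 12 with siKLF5, and none fell. Of the splicing factor list a transcript of SRSF2 rose with siNFYA and 4 fell, among them those of HNRNPA1, RBM25 and SON. That of HNRNPA1 alone fell with siKLF5. With library totals 8 and 2 fell. The SRSF2 transcript ENST00000585202 held 8.70 to 18.0 counts in siNFYA R1881 and 0 to 0.920 in siNFYA vehicle, without a unique word. Its gene fell (log2 -0.76, adjusted p = 1.35e-12). SON ENST00000455528, also without a unique word, was at -1.97 while its gene was at 0.11 under the main normalisation. No transcript passed the test of a difference between arms, for siNFYA or siKLF5, among 0.0% of all transcripts tested in both. At an unadjusted p under 0.05 there were 130 and 125, and DESeq2 called 18 and 12.

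With siNFYA few of the transcripts passed the level test. Those higher in R1881 were mostly scarce in control cells, with the stop in an extra exon or, for NUMA1, a kept intron. In vehicle 3 of 2487 passed, against 0.454% of all transcripts tested (0.178% higher, 0.276% lower), NUMA1 upward and NARS and AC106886.5 downward. In R1881 5 passed, all upward, against 0.572% of all (0.381% higher): NUMA1, TRAF4, SREBF1, SRSF6 and SRRT. Other tools gave falls as well in R1881, 39 higher and 17 lower with DESeq2 and 7 and 3 with limma on TPM. Without the filter on low counts there were 1 and 1. In vehicle DESeq2 called 31 higher and 30 lower. In the main edgeR fit 181 transcripts in vehicle and 171 in R1881 had an unadjusted p under 0.05. The siNFYA and siKLF5 comparisons share the control libraries, and the R1881 groups enter the androgen comparison as well, so their values are given side by side and not compared.

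NUMA1 encodes a protein that organises the spindle poles. NUMA1 ENST00000545721 was at 2.09, 3.64 and 3.24 CPM in control R1881 and 15.5, 13.3 and 17.1 with siNFYA (log2 2.35, SE 0.255, adjusted p = 0.00350). In vehicle it was at 9.38, 7.25 and 8.02 in control and 19.1, 26.9 and 19.99 with siNFYA (log2 1.43, adjusted p = 0.0347). With siKLF5 it was at 18.8 and 10.9 CPM in vehicle and 11.9, 8.65 and 9.33 in R1881, without a call (log2 0.85 and 1.74, adjusted p = 0.958 and 0.158). Every knockdown library was above every control library of the same treatment. The gene did not pass (-0.10, adjusted p = 0.201, in R1881), and the transcript's share of it went from 0.631 ± 0.184 to 3.51 ± 0.373% (n = 3 each, adjusted p = 0.0229). The R1881 call was kept in every fit that left out a library (adjusted p 0.0106 to 0.0205). The vehicle call was lost in each (0.0714 to 0.162, the former without siNFYA replicate 3), as was that of the share (0.0546 to 0.183).

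TRAF4 and SREBF1 carry their stops just inside extra exons, as printed above. TRAF4 encodes an adaptor of receptor signalling, and ENST00000478021 was at 1.13, 0.709 and 0.976 CPM in control R1881 and 4.16, 4.52 and 3.71 with siNFYA (log2 2.12, SE 0.354, adjusted p = 0.0325). In vehicle it was at 2.52, 1.93 and 2.39 in control and 6.67, 6.79 and 4.90 with siNFYA, which did not pass (log2 1.44, adjusted p = 0.127). SREBF1 encodes a transcription factor of lipid synthesis, and ENST00000395751 was at 2.50, 1.85 and 1.61 CPM in control R1881 and 12.3, 11.5 and 6.10 with siNFYA (log2 2.35, SE 0.414, adjusted p = 0.0395). Neither pair of groups overlaps, and neither gene passed (log2 -0.04 and 0.02), but nor did the share tests (adjusted p = 1 and 0.681, and 0.343 for SRRT). The calls were lost in 6 of 6 and 5 of 6 fits without 1 library (adjusted p 0.0801 to 0.108 and 0.0473 to 0.149). Other transcripts of both genes were also higher with siNFYA in R1881. SREBF1 retained-intron ENST00000584760 went from 0.564, 0.280 and 0.285 CPM to 2.83, 2.17 and 2.19. TRAF4 coding ENST00000584944 went from 1.35, 1.34 and 1.08 to 4.11, 2.55 and 2.05. The other decay-type transcripts, ENST00000586813 and ENST00000578469, overlapped control, and the main TRAF4 coding transcript ENST00000262395 was lower. SRRT ENST00000641476, chosen after its values were seen, held 9.35, 11.4 and 10.1 counts with siNFYA and 0 in the 3 control R1881 libraries (at least 10.4-fold higher, adjusted p = 0.0206), but 8.06 to 18.0 in control vehicle. That call was lost in 4 of 6 such fits. With siKLF5 in R1881 SRRT held 12.3, 9.55 and 6.47 counts (at least 9.99-fold above control R1881), TRAF4 was at 2.64, 3.62 and 1.92 CPM and SREBF1 at 10.7, 2.74 and 1.23, without calls. The SRRT and TRAF4 values lie above every control R1881 library, and those of SREBF1 overlap them. Beside these changes the share of counts in retained introns was 1.96 ± 0.0155% in control R1881 and 2.62 ± 0.0536% with siNFYA (n = 3 each). Its part in them was not tested.

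**Figure D5:**
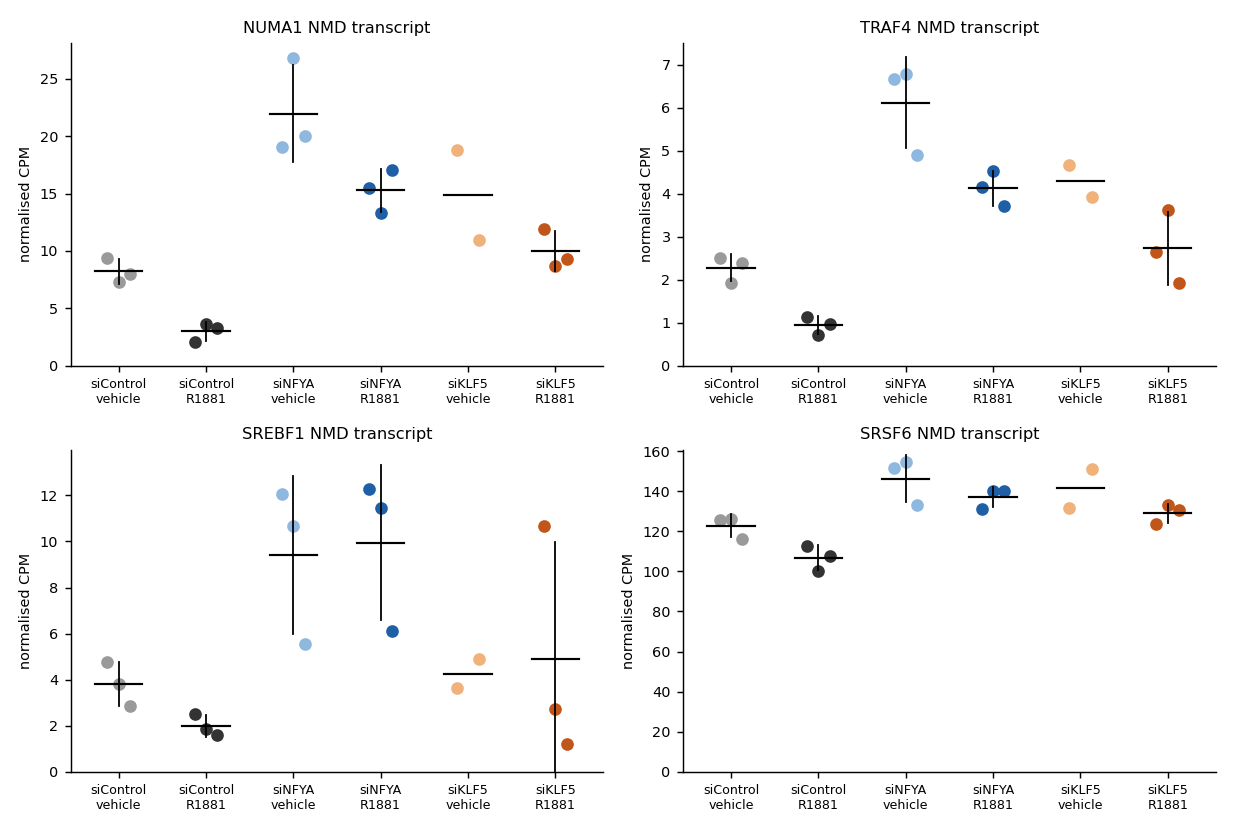
Levels in normalised CPM of the decay-type transcripts of NUMA1, TRAF4, SREBF1 and SRSF6 in each of the 17 libraries, by group; horizontal lines are group means and vertical bars the SD where n = 3, the lower end of 1 bar for SREBF1 being hidden by the axis at 0. For NUMA1 and TRAF4 every siNFYA library lies above every control library of the same treatment.

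SRSF6, a serine- and arginine-rich splicing factor, was the abundant one of the 5. Its poison exon transcript ENST00000483871 (268-nt extra exon) was at 113, 100 and 107 CPM in control R1881 and 131, 140 and 140 with siNFYA (log2 0.37, SE 0.0676, adjusted p = 0.0447). The gene, whose only other transcript in the tables is the coding ENST00000244020, rose by 0.29 (adjusted p = 5.90e-05). The share of the gene held by the decay-type transcript was 51.3 ± 3.23 and 54.7 ± 2.33% of counts, which overlap. The call was lost in each fit without 1 library (adjusted p 0.0763 to 0.167). With siKLF5 in R1881 the levels were 124, 133 and 130.4 CPM, also above the control R1881 libraries, without a call. In vehicle the levels were 126, 126 and 116 in control and 151, 154 and 133 with siNFYA, without a call (log2 0.27, adjusted p = 0.151).

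The 2 falls with siNFYA in vehicle were of other kinds. NARS ENST00000586807, of the asparaginyl-tRNA synthetase gene, was at 13.1, 19.7 and 8.75 CPM in control and 0, 0.000433 and 0.224 with siNFYA (ratio 223, 95% counting interval 39.6 to 8828; adjusted p = 0.00497). It was at 17.6, 34.2 and 13.6 CPM in siNFYA R1881, its gene did not pass (log2 -0.06), and it has 25 unique words. AC106886.5 ENST00000380361, the only transcript of its gene, was at 62.6, 59.7 and 52.6 CPM in control and 35.8, 37.8 and 34.6 with siNFYA (log2 -0.68, SE 0.0954, adjusted p = 0.0212). That call was lost in 5 of 6 fits without 1 library (adjusted p 0.0306 to 0.0920), among them that without siNFYA replicate 3 (0.0594). The NARS call was kept without that library (0.0168).

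With siKLF5 the level test called 1 of 2624 transcripts in vehicle, against 0.0209% of all transcripts tested (0.0183% lower), and none in R1881, against 0.0836%. RAB3IP ENST00000417413 was at 3.55, 3.03 and 3.83 CPM in control vehicle and 0 in both siKLF5 libraries (at least 16.7-fold lower, adjusted p = 0.0450). It has no unique word, and the call was lost in all 5 fits without 1 library (adjusted p 0.0786 to 0.173). In R1881 137 transcripts had an unadjusted p under 0.05, and DESeq2 called 29. The number of siKLF5 vehicle libraries, 2, limits this comparison.

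The share test called 5 transcripts with siNFYA in vehicle (0.223% of all transcripts tested passed), 4 in R1881 (0.283%), 4 with siKLF5 in vehicle (0.0545%) and 1 in R1881 (0.0947%). They were DDX5, PRKAR1A, NSD2, NARS and CD151, then RBM25, NUMA1, SON and NOLC1, then DDX5, RBM25, RBM47 and TMEM144, and QARS. Without 1 library the calls for NSD2, NARS, PRKAR1A, SON and, with siNFYA, RBM25 were kept in all 6 fits. Those with siNFYA were lost for CD151 in 4, DDX5 in 5 and NOLC1 in 5 of 6 fits. With siKLF5 they were lost for DDX5, RBM25 and RBM47 in 4 of 5 each, TMEM144 in 3 of 5 (up to 0.259) and QARS in 2 of 6 (up to 0.0543). The 5 calls for siNFYA in vehicle all held without replicate 3 (adjusted p 1.68e-06 to 0.0455). All but NUMA1 and SON were at or near 0 in at least 1 library of one of the groups compared. RBM25 ENST00000528081 was at 9.83, 3.52 and 11.7 CPM in control R1881 and 0 with siNFYA, but also at 0 in both siKLF5 vehicle libraries and in 2 of 3 siKLF5 R1881 libraries. SON ENST00000455528, of a splicing co-factor gene, was at 74.5, 85.3 and 77.4 CPM in control R1881 and 9.00, 34.7 and 43.8 with siNFYA. Its share of the gene fell from 14.6 to 5.55% (adjusted p = 6.28e-05), although no 31-base word is unique to it. QARS ENST00000430182, of the glutaminyl-tRNA synthetase gene, was at 9.29, 15.0 and 15.1 CPM in control R1881 and 0 to 0.623 with siKLF5 (ratio 65.4 lower, 22.1 to 320), also without a unique word.

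The decay machinery was measured at the level of genes. Of 28 genes, 9 rose and 10 fell with R1881 in control cells, where 62.9% of all genes passed. With library totals the counts were 5 and 17. Rises included PYM1, which recycles the exon junction complex (log2 1.04), the release factors GSPT1 (0.78) and ETF1 (0.37), and the decay effectors SMG8 (0.59) and SMG5 (0.51). Falls included UPF2 (-0.46) and UPF3B (-0.47), which bridge UPF1 to the junction complex, and the cap-binding NCBP1 (-0.40). UPF1 itself did not pass (0.09, adjusted p = 0.168), but was lower with library totals (-0.14, adjusted p = 0.0328), under which the other genes named kept their direction. In the knockdown arms R1881 raised 7 and lowered 13 with siNFYA, where 62.1% of all genes passed, and raised 7 and lowered 8 with siKLF5, where 59.2% passed (5 and 17 in both with library totals). With siNFYA in vehicle DHX34 rose (0.70) and PNRC2 (-0.19) and XRN1 (-0.22) fell, where 13.5% of all genes passed (without replicate 3 PNRC2 did not pass, adjusted p = 0.0983), and in R1881 SMG6 fell (-0.35), where 5.96% passed. None passed with siKLF5 in either treatment (1.32 and 1.38% of all genes).

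Coding genes known to be held down by the pathway were followed as a further list of 15 tested genes. With R1881 in control cells 11 rose and 2 fell, with siNFYA in vehicle 8 rose and none fell (7 with library totals), and with siNFYA in R1881 ASNS rose and SLC7A11 fell. Over all genes tested 62.9, 13.5 and 5.96% passed in these 3 comparisons. With siKLF5 in vehicle SLC7A11 rose (0.26, adjusted p = 0.0272, where 1.32% passed), and in R1881 none passed. The 8 were ASNS, ATF3, ATF4, CARS, CDKN1A, SLC7A11, TBL2 and TRIB3, with log2 changes of 0.13 to 0.39, and 7 of them rose without siNFYA vehicle replicate 3, TBL2 being the exception (adjusted p = 0.241). Several of these, such as ATF3, ASNS and TRIB3, are also known as targets of the stress-response factor ATF4. The part of either in these rises was not tested. Among the transcripts of the type, none belonged to NFYA, NFYB, NFYC or KLF5.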

How the data were processed

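RNA sequencing of 18 LNCaP samples was deposited as tables, of which 17 libraries were analysed. Each cell joins an estimated count, a TPM value and another, unnamed number that was not used. Per the submitters' processing notes the authors used FastQC, Trimmomatic, kallisto and DESeq2 with GRCh38, and per the labels the library kit was directional. Their annotation is not given in the sources used here. Estimated counts as deposited were rounded and tested with edgeR 4.0.16 (quasi-likelihood, TMM, filterByExpr) in 2 tables fitted separately, 12 libraries with siNFYA and 11 with siKLF5, which share the 6 control libraries. diffSpliceDGE tested a transcript against its gene. Benjamini-Hochberg adjustment ran over all transcripts tested, with 0.05 as threshold. The deposited TPM values, per the file headers, served for levels between genes and for an alternative with limma 3.58.1. DESeq2 1.42.0 was another alternative. Structures and sequences came from GENCODE v29. Fold bounds took 3 counts over a group as the floor, and 95% intervals cover counting error only. Library totals of 4416653 to 6872421 counts limit scarce transcripts. Named transcripts were the 12 highest in mean TPM; among those that passed without overlap and reached 2 CPM, the 8 largest rises and falls with R1881 in control cells and 4 of each per knockdown comparison; the largest share changes that passed; up to 4 called transcripts per list and comparison; those of NFYA, NFYB, NFYC and KLF5; and 3 on each side of the cutoff. Others were chosen after their values were seen. Some items that met these rules are not reported here. The members and lists were chosen with earlier results of these data known.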

Additional observations from a re-analysis of the deposited data

How the results depend on the processing

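Counts of level calls moved most with the tool. DESeq2 called 318 transcripts for R1881 in control cells, 321 with siNFYA and 274 with siKLF5, 61 and 56 for siNFYA in vehicle and R1881, 16 and 29 for siKLF5, and 18 and 12 for the interactions. With limma on log2(TPM + 0.5) the counts were 12 and 10 for siNFYA in vehicle and R1881, 2 and 3 for siKLF5 and 1 for the siNFYA interaction. Without the filter on low counts they were 6 and 2 for siNFYA, 0 and 2 for siKLF5 and 1 for the siNFYA interaction, and share calls were 5 for R1881 and 10 for siNFYA in vehicle. A cutoff of 20 counts left 3 for siNFYA in R1881. limma diffSplice gave 25 share calls for R1881, 15 and 16 for siNFYA and 2 for siKLF5 in R1881. Library totals gave 5 calls among splicing factors.

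Leaving out 1 library at a time gave level counts of 142 to 169 for R1881 in control cells, 166 to 179 with siNFYA and 98 to 139 with siKLF5. They were 1 to 4 and 2 to 6 for siNFYA in vehicle and R1881, 0 to 1 for siKLF5 in each treatment and 0 for both interactions. Share counts were 3 to 7 for R1881, 3 to 10 and 2 to 7 for siNFYA, and 1 to 5 for siKLF5 in each treatment. With a lone siKLF5 vehicle library its spread was assumed to be that of the other groups. Of the named results that had a call, 18 lost it in at least 1 such fit and 26 under another setting. They are part of 103 named results, which also include levels and shares with no call to lose. The cause was not tested.

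The class share difference ranged without 1 library from 0.0315 to 0.0568 percentage points for R1881 in control cells, -0.0327 to 0.0325 for siNFYA in vehicle, 0.0571 to 0.0783 for siNFYA in R1881, and 0.00938 to 0.0347 and 0.0189 to 0.0289 for siKLF5. It reversed for R1881 without PDIA3 (-0.00644), for siNFYA in R1881 (-0.0545) and siKLF5 in R1881 (-0.0521) in TPM. For siNFYA in vehicle it reversed over all transcripts of the type (0.0324), without PDIA3 (0.000955), with totals without AC010970.1 (0.0134), without siNFYA vehicle replicate 3 (0.0325) and without control vehicle replicate 2 (0.0109).

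Reversals of named transcripts, none of which had passed on that measure, were for levels RPS3 (-0.161 to 0.0241 without 1 library) and POLR2L (-0.0730 with library totals, -0.00547 with TPM). For shares, the log2 change without 1 library crossed 0 for B2M ENST00000561424 (-0.0168 to 0.0174, with 0.00614 in another fit), RACK1 ENST00000511473 (-0.141 to 0.0541, with 0.0200) and ENST00000504325 (-0.0230 to 0.159, with -0.00325), SERF2 (-0.00528 to 0.0553), KLK2 ENST00000594174 (-0.888 to 2.31), ACSL3 (-0.254 to 0.456, with 0.0466) and NCAPD3 (-1.11 to 0.814). With diffSplice they were KLK2 ENST00000594174 (0.927), HPGD (1.52, and 0.995 without the filter), ACSL3 (0.0826) and NCAPD3 (0.867). No paired analysis was possible because no 2 libraries share a number in their labels.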
